A study of Mus musculus with 28 samples.

Results

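The 9 libraries labelled as group 2 innate lymphoid cells (ILC2), of 28 libraries in the whole series, were compared by a code that stands in their file headers. The code is DK20129 in 3 libraries (replicate 3 of each treatment) and DK21069 in 6 libraries (replicates 1 and 2 of each treatment), so each treatment has 1 library of DK20129 and 2 of DK21069. All mice were wild-type (WT) C57BL/6 animals aged 8 weeks, and the cells were sorted from lung by flow cytometry. The treatments were none (untreated), papain given into the nose at 50 µg per day, and papain with FK506. The FK506 dose was 0.2 mg per day by intraperitoneal injection, in courses of 3 days set 2 days apart, with papain given alongside the later course. Papain is a plant cysteine protease that provokes allergic lung inflammation in mice, and FK506 (tacrolimus) inhibits the phosphatase calcineurin. The antibodies and gates of the sort, and how many mice gave each library, are not given in the sources used here. Nothing in the labels says that the replicates came from separate animals, so the p-values measure only the spread between these libraries, which may be technical. That spread was largely pooled over genes of like expression.

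ILC2 are lymphocytes without a rearranged antigen receptor that live in tissues such as the lung. They depend on the transcription factors GATA3 and RORα, respond to the epithelial alarmins IL-33, IL-25 and TSLP through receptors that include ST2 (Il1rl1) and Crlf2, and secrete IL-5 and IL-13 in type 2 inflammation. They are rare in lung digests, where epithelial, endothelial, stromal and myeloid cells are far more abundant, so a sorted ILC2 library is usually read beside the defining transcripts of those other lineages. In bulk libraries such as these, fewer cells of a type and less RNA per cell cannot be told apart.

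All levels are the authors' deposited values, which are whole numbers on the scale of CPM (read counts brought to the same total in every library). A value of 0 is described as listed at 0, because Gapdh, a glycolytic enzyme of every cell, was listed at 0 in 5 of the 9 libraries. Genes listed above 0 numbered 4008, 3134 and 7240 in the DK20129 untreated, papain and papain + FK506 libraries, against 3911 to 7056 in the DK21069 libraries. The count of 3911 belonged to DK21069 papain + FK506 replicate 1, and the other 5 DK21069 libraries had 5995 or more. The step between low values put the library total at 904159 reads in the DK20129 papain library and 2512563 reads in the DK20129 papain + FK506 library, against 1358696 to 1610306 reads in the DK21069 libraries. In the DK20129 untreated library the step could not be resolved. At these depths 1 read was worth 1.11 and 0.398 units in the 2 DK20129 libraries with a resolved step, against 0.621 to 0.736 units in the DK21069 libraries, and all statements on low genes are limited by counting error. Across the 6271 genes tested, the correlation of log2 values was 0.345 to 0.410 among the 3 DK20129 libraries, 0.473 to 0.625 among the 6 DK21069 libraries and 0.293 to 0.372 between the codes. These correlations are across genes of the same libraries and are a description.

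The first question was how far the same sorted population differed between the codes within treatments. Among the genes that passed as higher in DK20129 (1.42% of all genes tested) were 5 of 8 tested genes of alveolar type 2 cells, 5 of 6 of MHC class II, 2 of 3 of neutrophils, 3 of 9 of fibroblasts and smooth muscle, 2 of 9 of endothelium and 2 of 7 of macrophages and monocytes. Among those that passed as lower (3.99% of all genes tested) were 9 of 19 ILC2 identity genes and 2 of 3 T cell genes. Genes had to reach 10 units in at least 3 libraries to be tested, and 87 of 212 lineage genes did. A gene below 10 units throughout DK21069 thus entered only if all 3 DK20129 libraries reached 10 units. Its lack of overlap was then fixed. Of 10 tested genes at 0 in all DK21069 libraries 9 passed, against 29 of 526 at 0 in all DK20129 libraries. The shares above depend on that filter. The MHC class II calls were all lost without the DK20129 papain + FK506 library, and the macrophage gene C1qa was above 0 in that library alone. Of 6271 genes tested, 339 (5.41%) passed an adjusted p of 0.05 in limma with treatment as a covariate. Higher in DK20129 were 89 genes (1.42%), and lower were 250 genes (3.99%). The median log2 difference over all genes tested was -0.92, so a single gene is to be read against that shift. With median-of-ratios scaling the median was -0.70, and 265 genes passed, 106 higher and 159 lower. The DK20129 libraries did not overlap with the DK21069 libraries for 218 genes that were higher (3.48%) and 323 that were lower (5.15%). Within treatments, 322 of the 339 genes called had the same sign in untreated, papain and papain + FK506, against 1981 of the 6271 genes tested. The fit that called those genes used the same libraries and favours a shared sign, so this is a description. The median difference over all genes was -1.65 in untreated, -1.86 in papain and 0.46 in papain + FK506, in the order of how few genes each DK20129 library listed above 0, and the part of this in the calls was not tested. Since every DK20129 library is a replicate 3, the code, the replicate number and anything else those 3 libraries share cannot be told apart. The count of genes called was 158 without the DK20129 untreated library and 158, 175, 161, 179 and 201 without DK21069 untreated 2, untreated 1, papain 2, papain 1 and papain + FK506 2. Without the DK20129 papain + FK506 library it was 384, of which 42 were higher, and 25 were higher without the DK20129 untreated library. The median difference over all genes was -0.56, -0.52 and -1.67 without the DK20129 untreated, papain and papain + FK506 library. The count was 114 when the variance was fitted without a trend on expression.

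**Figure D1:**
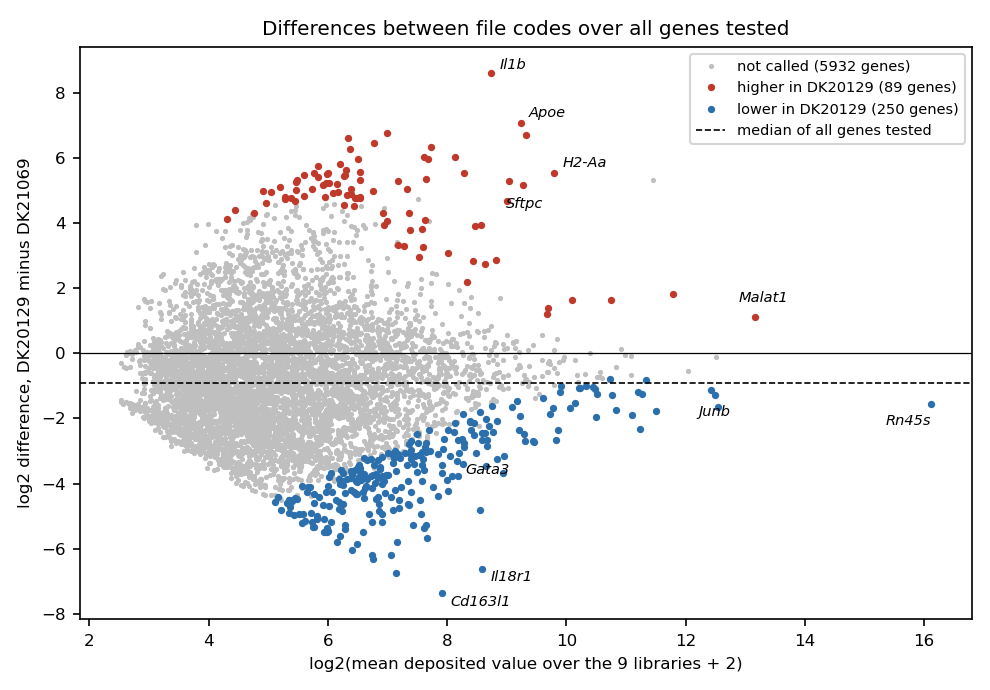
Each point is 1 of the 6271 genes tested. The x axis is the log2 of the mean deposited value over the 9 libraries plus 2 and the y axis is the log2 difference, DK20129 minus DK21069. The 89 genes called higher (red) lie apart from the 250 called lower (blue), and the dashed median of all genes sits at -0.92.

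The list of ILC2 identity genes summed lower in each DK20129 library, but its 4 defining genes were all far lower in the papain + FK506 library alone. Of 20 ILC2 identity genes, 19 were tested, and 9 passed as lower and 0 as higher, beside 3.99% and 1.42% of all genes. The list's median log2 difference was -3.32, beside -0.92 over all genes. The summed list was 1981, 4616 and 484 units in the DK20129 untreated, papain and papain + FK506 libraries, against 4727 to 5817 units in DK21069, where the median was 5245. The papain + FK506 library of DK20129 was thus the lowest of the 9, and the papain library of that code came close to the DK21069 range without entering it. Gata3, the transcription factor that specifies ILC2, had 440, 56 and 0 units in the DK20129 untreated, papain and papain + FK506 libraries, against 145 to 807 (median 285) in DK21069 (log2 difference -3.32, SE 0.80, adjusted p = 0.00791). Rora, which encodes RORα, had 418, 603 and 15 units in DK20129, against 314 to 1015 (median 693) in DK21069 (log2 difference -2.36, SE 0.52, adjusted p = 0.00354). Il1rl1, the IL-33 receptor, had 44, 271 and 0 units in DK20129, against 130 to 383 (median 218) in DK21069 (log2 difference -3.24, SE 0.88, adjusted p = 0.0206). For all 3 of these genes the codes overlapped, and the papain + FK506 library of DK20129 lay below all others. Il7r, the receptor for a survival cytokine of lymphocytes, had 280, 879 and 10 units in DK20129, against 36 to 476 (median 368) in DK21069 and did not pass (adjusted p = 0.348). Within untreated, the log2 differences of Gata3, Rora, Il1rl1 and Il7r were -0.85, -1.68, -3.28 and -0.73 (all genes: median -1.65). Within papain they were -2.44, -0.82, 0.15 and 0.39 (all genes: -1.86). Within papain + FK506 they were -6.66, -4.60, -6.59 and -3.14 (all genes: 0.46). These differences within treatments were not tested.

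Several surface receptors of ILC2 passed as lower with no overlap between the codes. Il18r1, the IL-18 receptor chain, had 0, 0 and 43 units in the DK20129 untreated, papain and papain + FK506 libraries, against 225 to 823 (median 642) in DK21069 (log2 difference -6.62, SE 0.85, adjusted p = 6.06e-07). Thy1, a surface protein used to gate ILC2, had 111, 55 and 0 units in DK20129, against 435 to 798 (median 484) in DK21069 (log2 difference -4.82, SE 0.73, adjusted p = 1.68e-05). Cxcr6, a chemokine receptor of tissue lymphocytes, had 121, 0 and 0 units in DK20129, against 188 to 386 (median 260) in DK21069 (log2 difference -5.27, SE 0.95, adjusted p = 0.000331). For these 3 genes the highest DK20129 library lay below the lowest DK21069 library. Il2ra, the IL-2 receptor α chain, was listed at 0 in all 3 DK20129 libraries, against 45 to 166 units (median 70.5) in DK21069 (adjusted p = 0.00597). Icos, a costimulatory receptor, had 11, 534 and 24 units in DK20129, against 331 to 655 (median 494) in DK21069 (log2 difference -3.46, SE 0.67, adjusted p = 0.000796), so the papain library of DK20129 lay inside the DK21069 range. Among the cytokines, Il13 had 0, 66 and 0 units in DK20129, against 30 to 386 (median 72.5) in DK21069 (log2 difference -4.15, SE 1.13, adjusted p = 0.0207). Il5, the eosinophil growth factor, was listed at 0 in the 3 DK20129 libraries, against 14 to 141 units in DK21069, and missed the threshold (adjusted p = 0.0531). Crlf2, the TSLP receptor, had 19, 347 and 253 units in DK20129, against 79 to 339 in DK21069, and Areg, which encodes the repair factor amphiregulin, had 64, 649 and 36 units in DK20129, against 71 to 250 in DK21069. Neither passed (adjusted p = 0.471 for both). All 4 defining genes were above 0 in each DK21069 library and in the DK20129 untreated and papain libraries. Il1rl1 in the DK20129 untreated library and Gata3 in the DK20129 papain library lay below every DK21069 library. In the library labelled ILC2, papain + FK506 replicate 3, the data went against the label: Gata3 and Il1rl1 were listed at 0, and Rora and Il7r stood at 15 and 10 units, below all 8 other libraries.

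Without that library 5 of the 19 ILC2 identity genes passed. The calls of Gata3 (adjusted p = 0.125), Rora (adjusted p = 0.119), Il1rl1 (adjusted p = 0.225) and Icos (adjusted p = 0.0619) were lost without it, and that of Icos also without the DK20129 untreated library (adjusted p = 0.0538). Il1rl1 also missed the threshold without DK20129 untreated (adjusted p = 0.0828), DK21069 untreated 2 (adjusted p = 0.0814) and DK21069 papain + FK506 1 and 2 (adjusted p = 0.0633 and 0.0878). Il13 passed in 3 of the 9 fits that left out a library, namely without DK20129 papain, DK20129 papain + FK506 or DK21069 papain + FK506 1, and its adjusted p reached 0.095 in the other 6. Without a trend of variance on expression Gata3, Rora, Il1rl1 and Icos lost their calls (adjusted p = 0.154, 0.227, 0.176 and 0.134). So did Thy1, Cxcr6 and Il13 (adjusted p = 0.0558, 0.0533 and 0.0515). As a share of all listed values the ILC2 list was 0.362%, 0.754% and 0.076% in the DK20129 untreated, papain and papain + FK506 libraries, against 0.747% to 1.02% in DK21069, so on that scale the papain library entered the DK21069 range.

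**Figure D2:**
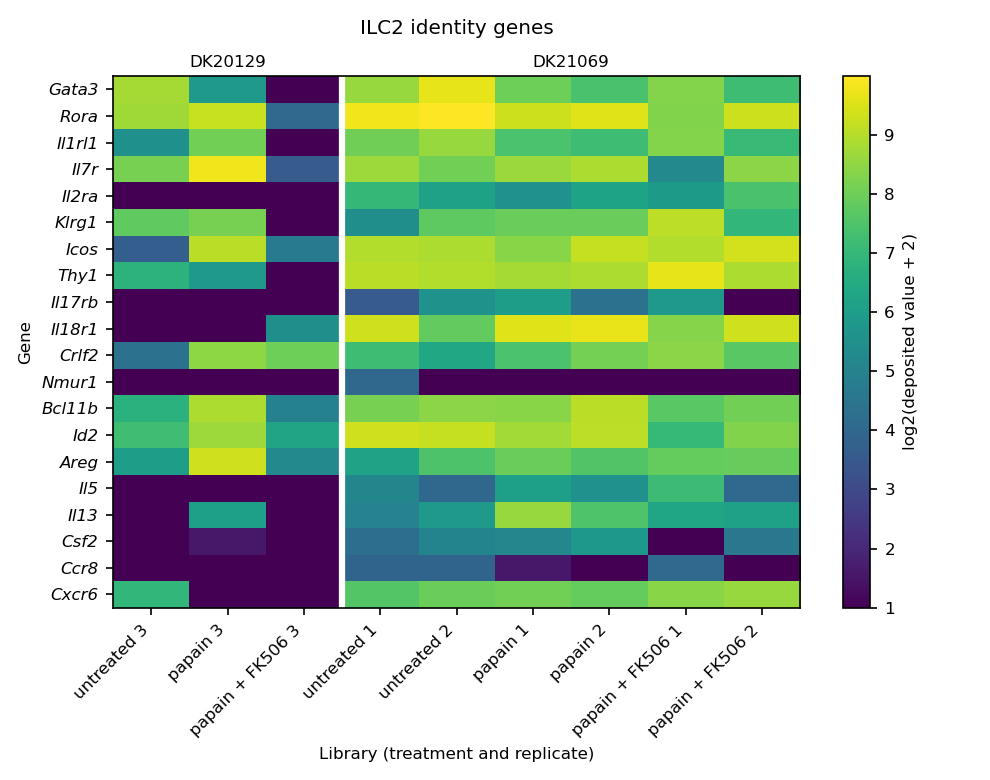
The heat map shows log2(deposited value + 2) of the 20 ILC2 identity genes (rows) in the 3 DK20129 libraries, at left, and the 6 DK21069 libraries, at right. Il18r1, Thy1, Cxcr6 and Il2ra are dark on the left and bright on the right, and the papain + FK506 library of DK20129 is dark for most genes, with 12 of the 20 listed at 0.

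The pan-leukocyte list had a median difference near that of all genes. Of 7 pan-leukocyte genes tested, 1 passed as lower and 0 as higher, with a list median of -0.80 beside -0.92 over all genes. Ptprc, which encodes the leukocyte antigen CD45, had 120, 186 and 179 units in the DK20129 untreated, papain and papain + FK506 libraries, against 131 to 425 (median 323) in DK21069 (adjusted p = 0.293). The list summed to 2814, 5029 and 4273 units in DK20129, against 3417 to 6621 units in DK21069, and the codes overlapped. The gene that passed, Laptm5, encodes a lysosomal protein of blood cells and had 1053, 1507 and 1459 units in DK20129, against 1383 to 2770 (median 1719) in DK21069 (log2 difference -0.80, SE 0.24, adjusted p = 0.0376). Its call was lost in 7 of the 9 fits that left out a library, all but those without DK21069 papain + FK506 1 and DK20129 papain + FK506 (adjusted p up to 0.296), and without further scaling (adjusted p = 0.317).

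Alveolar type 2 cells make pulmonary surfactant, and their surfactant transcripts stood between 276 and 2307 units in every DK20129 library. Of 12 alveolar type 2 genes, 8 were tested and 5 passed as higher, beside 1.42% of all genes, and 0 passed as lower. The list median was 4.91 beside -0.92. The list summed to 4936, 6802 and 4115 units in the DK20129 untreated, papain and papain + FK506 libraries, against 0 to 621 units (median 160) in DK21069. No DK20129 library overlapped with a DK21069 library in this sum, and within DK21069 the range ran from a library with all 12 genes at 0 (papain + FK506 1) to papain + FK506 2. Sftpc, which encodes surfactant protein C, a protein made by alveolar type 2 cells alone, had 1936, 2087 and 1042 units in DK20129, against 0 to 169 (median 67) in DK21069 (log2 difference 5.17, SE 0.94, adjusted p = 0.000369). Sftpb, a second hydrophobic surfactant protein, had 520, 1275 and 637 units in DK20129, against 0 to 43 (median 12) in DK21069 (log2 difference 6.02, SE 1.18, adjusted p = 0.000816). Sftpa1, a collectin of surfactant, had 1741, 2307 and 1357 units in DK20129, against 0 to 242 (median 19.5) in DK21069 (log2 difference 6.72, SE 1.19, adjusted p = 0.000263). For all 3 genes every DK20129 library lay above every DK21069 library. Sftpd, the other surfactant collectin, had 378, 623 and 276 units in DK20129, against 0 to 70 (median 15.5) in DK21069 (log2 difference 5.04, SE 1.32, adjusted p = 0.0149). Cxcl15, a chemokine of lung epithelium, had 241, 45 and 401 units in DK20129, against 0 to 73 (median 0) in DK21069 (log2 difference 4.78, SE 1.49, adjusted p = 0.0464), and the codes overlapped. Lamp3, also a defining gene of the list, did not follow the surfactant genes and was not tested. It had 0, 0 and 33 units in DK20129, against 0 to 31 in DK21069.

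These levels were also set against the libraries sorted as alveolar type 2 cells (AEC2) under the same treatment. Sftpc in the DK20129 untreated, papain and papain + FK506 libraries came to 3.74%, 4.64% and 2.82% of the mean of the 2 AEC2 libraries of that treatment, and Sftpa1 to 5.25%, 5.24% and 2.82%. Over the 12 genes of the list the median share was 1.93%, 4.94% and 2.82%, and the shares ran from 0 to 66.4%, 0 to 111% and 0 to 235% in the 3 libraries. The highest shares came from genes low in AEC2. These were Abca3 in untreated and papain (AEC2 means 36.15 and 52.45) and Etv5 in papain + FK506 (2 units beside 0.85). Lamp3 was at 0 in DK20129 untreated and papain, beside AEC2 means of 1052 and 1292. Both kinds of table are on the CPM scale, but they list different totals, so these shares are approximate. The call of Sftpc was lost without the DK20129 papain + FK506 library (adjusted p = 0.0675), and that of Sftpd without any 1 of the DK20129 libraries (adjusted p = 0.118, 0.115 and 0.0872 without untreated, papain and papain + FK506). Without a trend of variance on expression Sftpc, Sftpa1, Sftpd and Cxcl15 lost their calls (adjusted p = 0.107, 0.0788, 0.122 and 0.107). Sftpb kept its call. Cxcl15 was lost in 7 of the 9 fits that left out a library (adjusted p up to 0.347, without DK20129 untreated), with DK21069 papain 1 and papain + FK506 2 the exceptions.

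The airway secretory sum was higher in all 3 DK20129 libraries, but secretoglobins were abundant in the untreated library alone. Secretory (club) cells of the bronchioles make secretoglobins, and their list summed to 39765, 262 and 455 units in the DK20129 untreated, papain and papain + FK506 libraries, against 0 to 166 units (median 2) in DK21069. Scgb1a1, the main secretoglobin of club cells, had 24968, 0 and 69 units in DK20129, against 0 in 5 DK21069 libraries and 68 in papain + FK506 2, and did not pass (adjusted p = 0.0547). Bpifa1, a secreted airway defence protein, had 4925 units in the DK20129 untreated library and was listed at 0 in the other 8, as was Scgb3a1, with 4751 units, and Scgb3a2, with 1522 units. Cbr2, a carbonyl reductase of lung epithelium, was the only one of 3 tested genes of the list to pass, with 1078, 262 and 330 units in DK20129, against 0 to 70 (median 2) in DK21069 (log2 difference 6.04, SE 1.37, adjusted p = 0.00424). Its call was lost without the DK20129 untreated library (adjusted p = 0.127). Cbr2 was the whole list sum in the DK20129 papain library, where the other 10 of 11 genes were at 0. In papain + FK506 it was 330 of 455 units. The AEC2 libraries, sorted as alveolar type 2 cells, listed Cbr2 at 6168 to 12776 units. The list was 7.26% of all listed values in the DK20129 untreated library.

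The remaining epithelial lists were small. Alveolar type 1 genes summed to 268, 615 and 436 units in the DK20129 untreated, papain and papain + FK506 libraries, against 1 to 120 units in DK21069, and 0 of 3 tested genes passed in either direction. Ager, a receptor abundant on alveolar type 1 cells, had 46, 338 and 182 units in DK20129, against 0 to 76 (median 5) in DK21069 (adjusted p = 0.136). Hopx and Pdpn, also defining genes of that list, were at 0 in DK20129 untreated and papain and were not tested. They had 103 and 6 units in DK20129 papain + FK506 and reached 15 and 0 units in DK21069. General epithelial genes summed to 416, 128 and 70 units in DK20129, against 0 to 50 units in DK21069, while Epcam, the usual gating marker of epithelium, was listed at 0 in all 3 DK20129 libraries, against 0 to 13 units in DK21069. Ciliated cell genes summed to 244, 3 and 168 units in DK20129, against 0 to 145 units in DK21069. Tppp3, which other cells also express, gave 244, 3 and 131 of these units in DK20129 and all of them in DK21069, and Foxj1, the transcription factor of ciliated cells, Tmem212 and Dynlrb2 had 14, 12 and 11 units in the DK20129 papain + FK506 library and were listed at 0 in the other 8. Mesothelial genes reached 8 units in DK20129 and 26 units in DK21069. The 1 gene tested from the ciliated list and the 1 from the general epithelial list did not pass (adjusted p = 0.656 for Tppp3 and 0.204 for Cdh1), and no mesothelial gene was tested.

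Endothelial and stromal transcripts accompanied the DK20129 libraries as well. Endothelial genes summed to 1540, 1115 and 327 units in the DK20129 untreated, papain and papain + FK506 libraries, against 35 to 171 units (median 97.5) in DK21069, and fibroblast and smooth muscle genes to 2677, 1183 and 654 units in DK20129, against 11 to 242 units (median 85) in DK21069. Of 9 endothelial genes tested 2 passed as higher, and of 9 fibroblast and smooth muscle genes tested 3 passed as higher, beside 1.42% of all genes. No gene of either list passed as lower, and the list medians were 2.62 and 3.86. Myh11, the myosin of smooth muscle, had 211, 240 and 22 units in DK20129 and was listed at 0 in all 6 DK21069 libraries (adjusted p = 0.0109). It could enter the test only through the DK20129 libraries, so its lack of overlap was fixed by the filter. Acta2, smooth muscle actin, had 738, 420 and 77 units in DK20129, against 0 to 19 (median 6.5) in DK21069 (log2 difference 5.29, SE 1.39, adjusted p = 0.0157). Eln, which encodes elastin, had 441, 341 and 114 units in DK20129, against 0 to 28 (median 8.5) in DK21069 (log2 difference 4.99, SE 1.36, adjusted p = 0.0205). Within DK20129 the untreated or papain library was highest for each of these genes and the papain + FK506 library lowest. Col1a1 and Col1a2, the chains of type I collagen, did not pass (adjusted p = 0.301 and 0.398). Tie1, a receptor kinase of endothelium, had 132, 457 and 58 units in DK20129, against 0 to 29 (median 0) in DK21069 (log2 difference 5.45, SE 1.49, adjusted p = 0.0207). Ramp2, a coreceptor for adrenomedullin in vessels, had 547, 123 and 41 units in DK20129, against 0 to 17 (median 0) in DK21069 (log2 difference 5.05, SE 1.5, adjusted p = 0.0357). The endothelial junction genes Pecam1 and Cdh5 stood at 90, 0 and 57 units and at 49, 0 and 27 units in the 3 DK20129 libraries, against 0 to 42 and 0 to 5 units in DK21069, and Pecam1 did not pass (adjusted p = 0.986).

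Without the DK20129 untreated library the calls of Myh11 (adjusted p = 0.0564), Acta2 (adjusted p = 0.208), Eln (adjusted p = 0.311), Tie1 (adjusted p = 0.115) and Ramp2 (adjusted p = 0.317) were lost. Acta2 also missed the threshold without DK20129 papain (adjusted p = 0.111) and Eln without DK20129 papain + FK506 (adjusted p = 0.0504). Tie1 and Ramp2 each passed in 3 of the 9 fits that left out a library, for Tie1 those without DK21069 untreated 1, DK21069 papain + FK506 1 or DK20129 papain + FK506, and for Ramp2 those without DK21069 papain 2, DK21069 papain + FK506 1 or DK20129 papain + FK506.

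**Figure D3:**
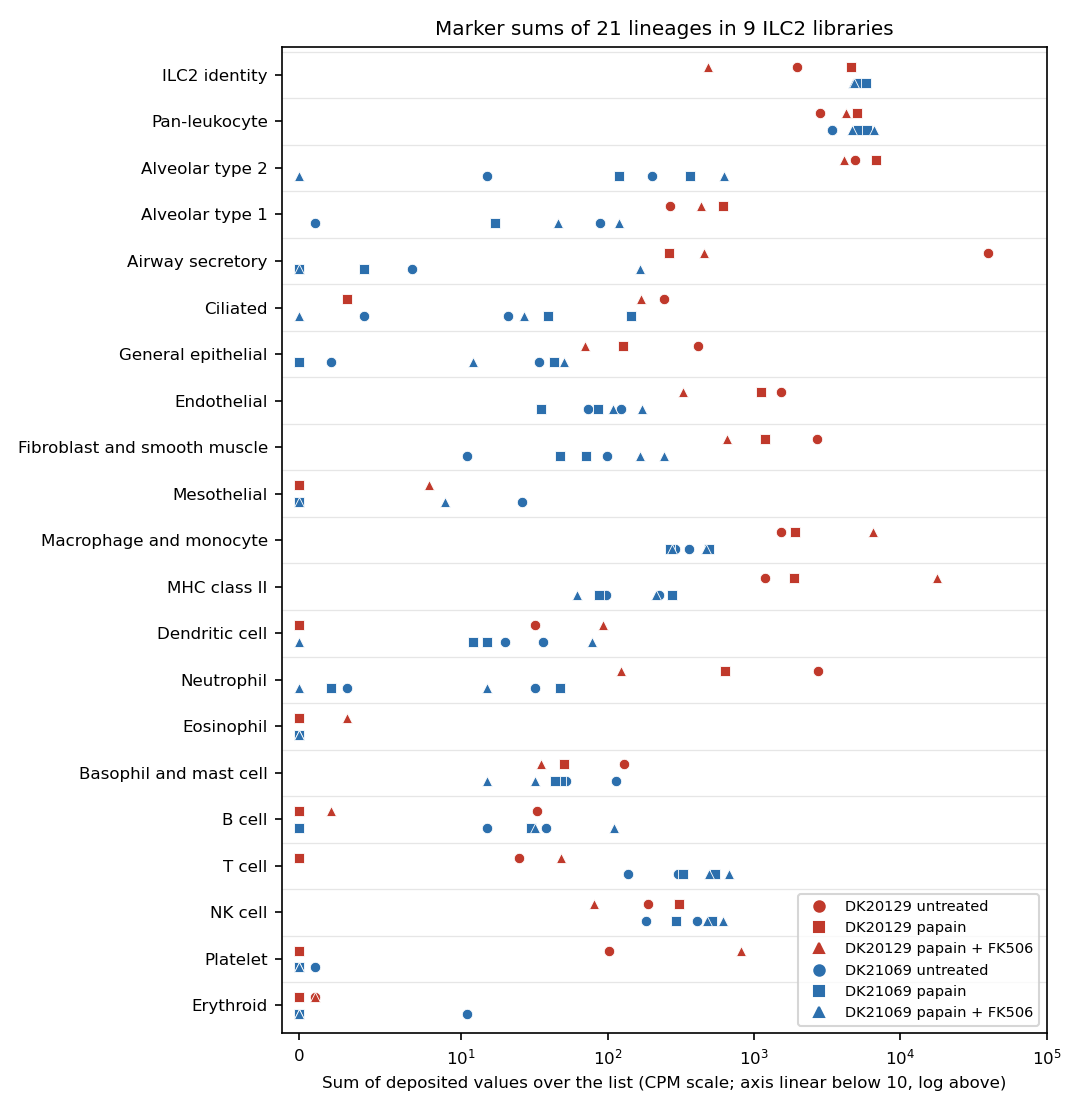
Each row is 1 of 21 lineage lists, with the 3 DK20129 libraries (red, upper) and the 6 DK21069 libraries (blue, lower) marked by treatment. The x axis is the sum of deposited values, linear below 10 and logarithmic above. Alveolar type 2, endothelial, fibroblast, macrophage, MHC class II and neutrophil sums lie to the right in all 3 red libraries, the airway sum of 39765 stands alone, and the ILC2 and T cell sums lie to the left in red.

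MHC class II transcripts were higher in DK20129, most of all in its papain + FK506 library. MHC class II genes, which present antigen on macrophages, dendritic cells, B cells and alveolar type 2 cells, summed to 1193, 1865 and 17745 units in the DK20129 untreated, papain and papain + FK506 libraries, against 62 to 275 units (median 156) in DK21069. Of 6 class II genes tested 5 passed as higher and 0 as lower, beside 1.42% and 3.99% of all genes, and the list median was 4.92. H2-Aa, a class II α chain, had 417, 616 and 6777 units in DK20129, against 0 to 80 (median 21.5) in DK21069 (log2 difference 5.55, SE 1.05, adjusted p = 0.000539). H2-Ab1, its β chain, had 195, 142 and 4143 units in DK20129, against 2 to 25 (median 22) in DK21069 (log2 difference 4.69, SE 1.17, adjusted p = 0.0101). Cd74, the class II invariant chain, had 293, 467 and 2237 units in DK20129, against 3 to 212 (median 31.5) in DK21069 (log2 difference 3.95, SE 0.96, adjusted p = 0.00844). Every DK20129 library exceeded every DK21069 library for all 3 genes, and the papain + FK506 library of DK20129 was the highest of the 9. H2-Eb1 and H2-DMb1 also passed (adjusted p = 0.00976 and 0.0289), and near-identical class II genes can share reads. Without the DK20129 papain + FK506 library the calls of H2-Aa (adjusted p = 0.105), H2-Ab1 (adjusted p = 0.227), H2-Eb1 (adjusted p = 0.3), Cd74 (adjusted p = 0.175) and H2-DMb1 (adjusted p = 0.0999) were all lost, and H2-DMb1 was also lost without DK20129 untreated or papain, or DK21069 untreated 1, papain 2 or papain + FK506 2 (adjusted p = 0.0608 to 0.0918). Those of H2-Aa, H2-Ab1, H2-Eb1 and Cd74 were also lost without a trend of variance on expression (adjusted p = 0.0788 to 0.142).

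Macrophage and monocyte genes summed to 1541, 1905 and 6531 units in the DK20129 untreated, papain and papain + FK506 libraries, against 269 to 490 units (median 324) in DK21069. Of 7 tested, 2 passed as higher and 1 as lower, beside 1.42% and 3.99% of all genes, with a list median of 3.78. The complement genes C1qa, C1qb and C1qc, made by tissue macrophages, stood at 1845, 776 and 897 units in the DK20129 papain + FK506 library, reached at most 23 units in the other DK20129 libraries and were listed at 0 in all 6 DK21069 libraries. They reached 10 units in too few libraries to be tested. Chil3, a chitinase-like protein of alveolar macrophages, had 1199, 827 and 555 units in DK20129, against 0 to 140 (median 18) in DK21069 (log2 difference 5.54, SE 1.10, adjusted p = 0.00102). Mrc1, the mannose receptor, had 61, 62 and 411 units in DK20129, against 0 to 10 (median 0) in DK21069 (log2 difference 5.22, SE 1.47, adjusted p = 0.0252). The 2 genes thus ran in opposite order across the DK20129 libraries. Csf1r, the receptor for the macrophage growth factor, had 1, 185 and 882 units in DK20129, against 0 to 25 in DK21069, and did not pass (adjusted p = 0.0877). Adgre1, also a defining gene, had 0, 0 and 163 units in DK20129, was listed at 0 in DK21069 and was not tested. Ccr2, a chemokine receptor that ILC2 also express, had 132, 522 and 534 units in DK20129, against 88 to 294 (median 219) in DK21069 (adjusted p = 0.74). Ly6c2, known from monocytes and from some lymphocytes, was the gene that passed as lower, with 0, 4 and 3 units in DK20129, against 38 to 187 (median 70) in DK21069 (log2 difference -4.41, SE 1.23, adjusted p = 0.024). Chil3 was lost without DK20129 untreated (adjusted p = 0.0555). Mrc1 and Ly6c2 each lost their call in 6 of the 9 fits that left out a library (adjusted p up to 0.0901 and 0.09). Mrc1 passed without DK20129 papain, DK21069 papain 1 or DK21069 papain + FK506 1, and Ly6c2 without DK20129 papain, DK20129 papain + FK506 or DK21069 papain + FK506 1.

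Neutrophil genes ran the other way across the DK20129 libraries, with sums of 2756, 636 and 124 units in untreated, papain and papain + FK506, against 0 to 47 units (median 9) in DK21069. Of 3 tested, 2 passed as higher, beside 1.42% of all genes. S100a8, a calcium-binding protein abundant in neutrophils, had 449, 115 and 76 units in DK20129, against 0 to 2 units in DK21069 (log2 difference 5.82, SE 1.44, adjusted p = 0.00991). Retnlg, a resistin-like protein of neutrophils, had 455, 227 and 13 units in DK20129 and was listed at 0 in DK21069 (adjusted p = 0.0107). S100a8 and Retnlg could enter the test only through the DK20129 libraries. Their lack of overlap was thus fixed by the filter, and the count of 2 of 3 is not independent of it. S100a9, the partner of S100a8, had 1580, 76 and 1 units in DK20129 and at most 1 unit in DK21069, and was not tested. Without the DK20129 untreated library S100a8 (adjusted p = 0.0746) and Retnlg (adjusted p = 0.0741) were lost, and Retnlg also without DK21069 untreated 2 (adjusted p = 0.0511). Platelet genes summed to 103, 0 and 818 units in DK20129, against 0 to 1 unit in DK21069, with the chemokine Pf4 at 103, 0 and 639 units in DK20129. Dendritic cell genes summed to 32, 0 and 93 units in DK20129, against 0 to 78 units in DK21069, and the 1 gene tested, Ccr7, did not pass (adjusted p = 0.479).

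Genes of the T cell list were lower in DK20129 where they passed, and no tested NK or B cell gene passed. T cell genes summed to 25, 0 and 48 units in the DK20129 untreated, papain and papain + FK506 libraries, against 139 to 680 units (median 410) in DK21069, and 2 of 3 tested passed as lower and 0 as higher, beside 3.99% and 1.42% of all genes. Cd3d, a subunit of the T cell receptor complex, had 25, 0 and 29 units in DK20129, against 125 to 429 (median 234) in DK21069 (log2 difference -4.52, SE 0.89, adjusted p = 0.000872). Cd3e, another subunit, was listed at 0 in all 3 DK20129 libraries, against 0 to 251 units (median 66.5) in DK21069 (adjusted p = 0.0479). Its call was lost in 8 of the 9 fits that left out a library, all but that without DK21069 untreated 2, and its adjusted p reached 0.211 without DK21069 untreated 1. Cd4 and Cd8a, the coreceptors of mature αβ T cells, were listed at 0 in 5 of the 6 DK21069 libraries and stood at 45 and 15 units in papain + FK506 2. The listed constant genes of the T cell receptor and of the antibody chains had no value in the ILC2 libraries. Which cells the Cd3 transcripts came from was not tested. NK cell genes summed to 189, 306 and 81 units in DK20129, against 183 to 610 units in DK21069, and 0 of 4 tested passed. Most of that sum was Ccl5, a chemokine of many lymphocytes, while the NK receptor Ncr1 was listed at 0 in all but DK21069 untreated 1, with 22 units. B cell genes summed to 33, 0 and 2 units in DK20129, against 0 to 110 units in DK21069, and basophil and mast cell genes to 129, 50 and 35 units in DK20129, against 15 to 114 units in DK21069. None of the 1 and 2 tested genes of those lists passed. Mcpt8 and Fcer1a, which define basophils, and Prg2, Epx and Ccr3, which define eosinophils, were listed at 0 in all 9 libraries, and erythroid genes reached at most 11 units.

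The genes with the largest differences, were next taken without regard to any list. The 12 largest higher genes were Il1b, Apoe, Cd9, Sftpa1, Lyve1, Timp3, Mt1, Wfdc17, Cbr2, Sftpb, Mt2 and Cd36. Il1b (chromosome 2, 129364569 to 129371164 in GRCm38.p6), the inflammatory cytokine of activated myeloid cells, had 1186, 265 and 2383 units in the DK20129 untreated, papain and papain + FK506 libraries and was listed at 0 in all 6 DK21069 libraries (adjusted p = 9.74e-05). Apoe, a lipid carrier of macrophages and other cells, had 147, 358 and 4869 units in DK20129, against 0 to 43 (median 0) in DK21069 (log2 difference 7.07, SE 1.43, adjusted p = 0.00131). Lyve1, a hyaluronan receptor of lymphatic vessels and of some macrophages, had 233, 320 and 156 units in DK20129 and was listed at 0 in DK21069 (adjusted p = 0.00268). Il1b and Apoe were highest in the papain + FK506 library of DK20129, and Lyve1 in its papain library. Timp3, a matrix protease inhibitor of stromal cells, had 358, 274 and 322 units in DK20129, against 0 to 13 (median 0) in DK21069 (log2 difference 6.45, SE 1.44, adjusted p = 0.00381). Wfdc17, a secreted protein of myeloid cells, had 108, 377 and 237 units in DK20129, against 0 to 3 in DK21069 (log2 difference 6.27, SE 1.45, adjusted p = 0.00545). The metallothioneins Mt1 and Mt2 buffer zinc and copper in many cells. Mt1 had 770, 137 and 916 units in DK20129, against 0 to 48 in DK21069 (log2 difference 6.32, SE 1.42, adjusted p = 0.00386), and Mt2 had 603, 275 and 873 units in DK20129, against 0 to 55 in DK21069 (log2 difference 5.98, SE 1.27, adjusted p = 0.0023). Cd9, a tetraspanin, and Cd36, a fatty acid receptor of endothelium and macrophages, completed the group (adjusted p = 0.00247 and 0.00976). Il1b, Cd9, Lyve1 and Wfdc17 stayed at 3 units or less in DK21069. They could enter the test only through the DK20129 libraries, so their lack of overlap was fixed by the filter. Without the DK20129 untreated library the calls of Mt1 (adjusted p = 0.133), Mt2 (adjusted p = 0.0911) and Cd36 (adjusted p = 0.0741) were lost, without DK20129 papain that of Cd36 (adjusted p = 0.085), and without DK20129 papain + FK506 those of Apoe (adjusted p = 0.0692) and Mt1 (adjusted p = 0.0639).

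The 12 largest lower genes were Cd163l1, Abca2, Il18r1, Traf1, Acot7, Gimap1, Podnl1, Tbc1d10c, Sox13, Gimap5, Lat and Il17re, and all 12 passed in each of the 9 fits that left out a library. Cd163l1 (chromosome 7, 140197218 to 140231145 in GRCm38.p6), a scavenger receptor known from γδ T cells, was listed at 0 in all 3 DK20129 libraries, against 76 to 538 units (median 374) in DK21069 (adjusted p = 1.53e-06). Abca2, a lipid transporter, was listed at 0 in DK20129, against 112 to 325 units (median 218) in DK21069 (adjusted p = 4.31e-05). Traf1, an adaptor of TNF receptor signalling, was listed at 0 in DK20129, against 65 to 238 units (median 158) in DK21069 (adjusted p = 0.000331). These genes were thus seen in every library of one code and in no library of the other. Gimap1 and Gimap5, GTPases of lymphocyte survival, had 0, 2 and 0 units and 0, 0 and 0 units in the 3 DK20129 libraries, against 70 to 420 and 66 to 135 units in DK21069 (adjusted p = 0.000299 and 0.00211). Lat, the adaptor that links the T cell receptor to its downstream enzymes, had 36, 0 and 0 units in DK20129, against 80 to 632 (median 244) in DK21069 (log2 difference -5.67, SE 1.00, adjusted p = 0.000263). Sox13, a transcription factor of γδ T cells, had 12, 0 and 0 units in DK20129, against 68 to 290 (median 232) in DK21069 (log2 difference -5.80, SE 1.04, adjusted p = 0.000331). Il17re, a receptor chain for IL-17C, was listed at 0 in DK20129, against 39 to 225 units (median 83.5) in DK21069 (adjusted p = 0.00372). Acot7, Podnl1 and Tbc1d10c were listed at 0 in all 3 DK20129 libraries (adjusted p = 0.000508, 0.000796 and 0.00187).

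**Figure D4:**
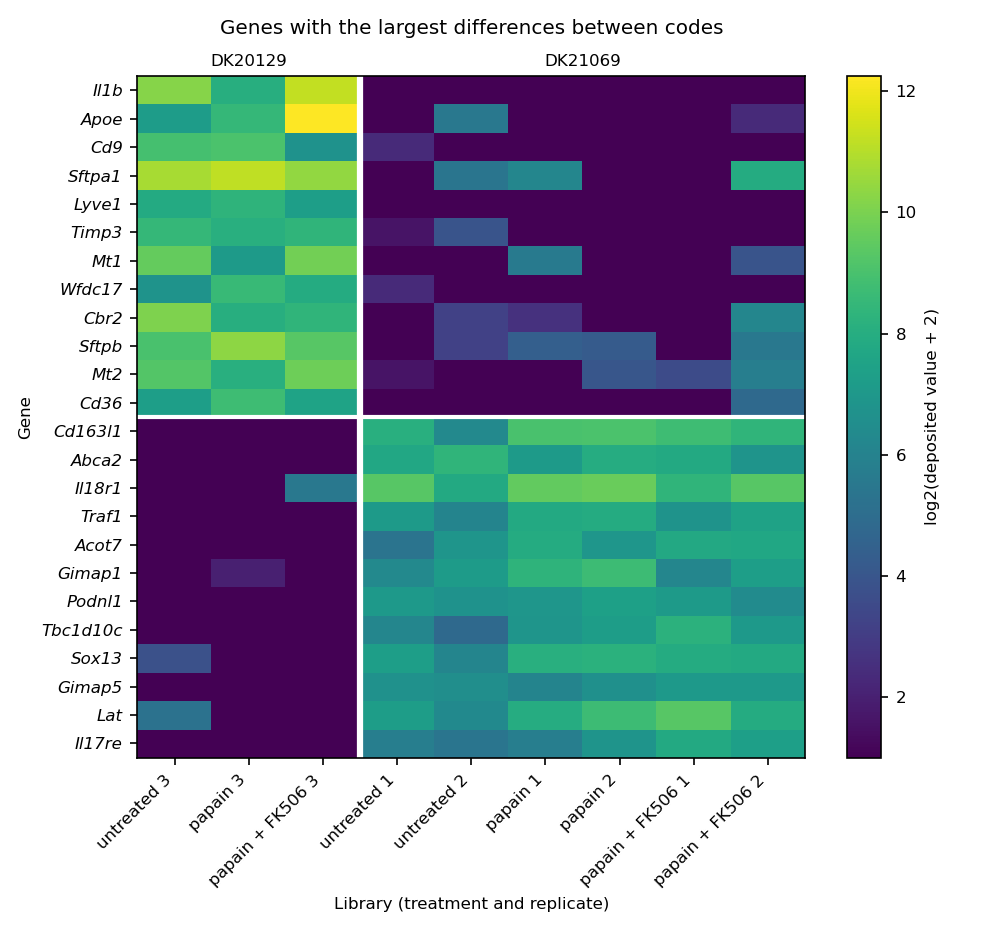
The heat map shows log2(deposited value + 2) of the 12 genes with the largest higher (top) and the 12 with the largest lower (bottom) differences, in the 3 DK20129 libraries, at left, and the 6 DK21069 libraries, at right. Il1b is at 0 in all 6 DK21069 libraries, and Cd163l1 is at 0 in all 3 DK20129 libraries.

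Because Cd163l1, Sox13, Il17re and Lat stood among the largest lower genes, 7 further genes of the same kinds are given here, looked at after those values had been seen. Blk, a Src-family kinase known from B cells and IL-17-producing γδ T cells, was listed at 0 in all 3 DK20129 libraries, against 26 to 485 units (median 69) in DK21069 (adjusted p = 0.00662). Il23r, Ccr6 and Il17a, which mark IL-17-producing lymphocytes, were listed at 0 in the DK20129 libraries as well, against 0 to 118, 0 to 189 and 0 to 39 units in DK21069, and none passed (adjusted p = 0.134, 0.226 and 0.327). Of the T cell receptor signalling genes, Cd247, the ζ chain, was listed at 0 in DK20129, against 15 to 159 units (median 87.5) in DK21069 (adjusted p = 0.00844), and its call was lost without DK21069 untreated 1 (adjusted p = 0.061). Zap70, the kinase that binds it, had 0, 77 and 0 units in DK20129, against 41 to 212 (median 77) in DK21069 (log2 difference -3.93, SE 1.18, adjusted p = 0.0383). That call was lost in 8 of the 9 fits that left out a library, all but that without DK20129 papain, with adjusted p up to 0.183 (without DK20129 untreated). Lck, a kinase of the same pathway, was listed at 0 in DK20129, against 5 to 155 units in DK21069 (adjusted p = 0.0524).

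The other sorted populations of the series were read beside these calls as a description. Of the 89 genes called higher, 88 had a value in those tables, and for 87 of the 88 (98.9%) the mean of the 7 libraries labelled basophil, which also carry DK20129 in their headers, exceeded every DK21069 ILC2 library. The same held for 58 (65.9%) with the mean of the 6 libraries labelled as alveolar type 1 cells (AEC1) and for 44 (50.0%) with the mean of the 6 AEC2 libraries. Over all genes tested these shares were 19.2%, 24.1% and 18.8%, and over the 242 genes called lower with a value they were 1.24%, 2.89% and 4.55%. Genes called higher are low in DK21069 by their selection, so these shares are not independent of the call. In all 7 libraries labelled basophil, Mcpt8 and Fcer1a, which define basophils, were listed at 0, which goes against the label. Their basophil and mast cell list summed to at most 289 units. These libraries also listed transcripts of the lineages above. Alveolar type 2 genes summed to 745 to 11574 units in them, MHC class II genes to 1368 to 32351 units and macrophage genes to 3327 to 10766 units, whereas T cell genes reached at most 9.2 units. The libraries labelled AEC1 listed Ager at 37.1 to 114 units, against 1384 to 3506 units in AEC2, and Hopx at 3.2 units or less. Pdpn went with the label, at 98.8 to 433 units in AEC1 and 0 in AEC2. Fibroblast and smooth muscle genes summed to 6002 to 14952 units in AEC1, and mesothelial genes to 1939.5 to 6949 units. The tables of different populations were normalised separately, so these levels are only set side by side.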

How the data were processed

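RNA of cells sorted from mouse lung was made into libraries with a Lexogen 3' kit from 10 ng of total RNA, per the labels' protocols, so reads lie near transcript ends. Per the submitters' processing notes, the tools were featureCounts 1.6.0 and STAR 2.7.0c and the builds GRCm38.p6 and mm10, with no settings. The authors deposited CPM for the basophil and alveolar libraries. For ILC2 the deposited values are whole numbers on the CPM scale, treated as a score, that is, CPM rounded by the authors. Rounding hides single reads, no source used here states the strand setting, and 27 genes had no value in the DK20129 tables. Raw counts were not used, so limma took the place that a count test could have had.

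Of 20022 genes with a value in all 9 ILC2 libraries, 6271 reached 10 units in at least 3. Values were scaled by the trimmed mean of M values, and log2(value + 2) was modelled on code and treatment in limma 3.58.1 under R 4.3.3, with moderated variances that follow a trend on expression. Tests were two-sided, with Benjamini-Hochberg adjustment over all genes tested and a threshold of 0.05. Differences are DK20129 minus DK21069 on that scale, on which low genes appear to differ less than they do. The fit had 5 residual degrees of freedom and a prior of 41.9, so the variance used for a gene came mostly from the trend over all genes. No difference is given against a code listed at 0. The depth was read from the spacing of values up to 60. That method resolved 10 of 18 tables with decimals after rounding them, all 10 within 1% of the step in the decimals, and its settings were chosen on those tables.

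Genes were named by rule. Those that passed, did not overlap between codes and averaged at least 100 units in the higher code were ranked by difference. Up to 12 in each direction were taken. The rule also covered every defining marker and the highest tested members of each lineage list, some of which are not given here. The libraries, the 27 lists and the rule were chosen with earlier results of these data known. Genome positions are from RefSeq. Alternatives were other scalings, pseudocounts, filters and variance settings, a replicate block, no treatment term and leaving out each library. A few genes of the sets looked at after values were seen are not reported here, so no count over those sets is given.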

Additional observations from a re-analysis of the deposited data

Results flagged for a closer look

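Among 55 library measures, list sums and called genes with at least 4 DK21069 libraries above 0, 11 had 1 DK21069 library far from the other 5 by Dixon's criterion, which chance alone meets in about 1 in 20 groups. Papain + FK506 replicate 1 was that library for 6 of them. It listed 3911 genes above 0, against 5995 to 7056 in the others. Its 10 highest genes held 13.8% of all listed values, against 23.7% to 26.7%, and its ribosomal protein genes summed to 60709 units, against 32735 to 42328 units. Its B cell list summed to 110 units, against 0 to 38 units, all of it Cd79b. Cd3e had 251 units there, against 0 to 81 units, and Blk had 485 units, against 26 to 166 units. The untreated replicate 2 library stood apart for Gata3, with 807 units against 145 to 391 units, and for basophil and mast cell genes, with 114 units against 15 to 52 units. Papain replicate 2 stood apart for ciliated genes, with 145 units against 0 to 39 units, and for Chil3, with 140 units against 0 to 19 units. Papain + FK506 replicate 2 stood apart for Mt2, with 55 units against 0 to 14 units. What these libraries share was not tested.

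For 6 of 76 measures the DK20129 library lay above both DK21069 libraries in one treatment and below both in another, and none of these differences between treatments was tested. Genes above 0 numbered 4008 and 3134 in the DK20129 untreated and papain libraries, below both DK21069 libraries of each treatment, and 7240 in the papain + FK506 library, above both. Il1rl1 had 44 units in untreated and 0 in papain + FK506, below both, and 271 units in papain, above both. Ciliated genes summed to 244 and 168 units in untreated and papain + FK506, above both, and 3 units in papain, below both. Cell cycle genes summed to 620 units in papain, above both, and 84 units in papain + FK506, below both. Dendritic cell genes summed to 0 in papain, below both, and 93 units in papain + FK506, above both. Genes every cell uses summed to 8046 and 10244 units in untreated and papain + FK506, below both, and 13608 units in papain, above both.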

How the results depend on the processing

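No call among the 339 genes changed direction under any of the 21 alternatives. The count of genes called was 213 with a pseudocount of 0.5 and 114 without a trend of variance on expression, and between 237 and 411 with the other settings that kept all 9 libraries. It ranged from 158 to 438 when 1 library was left out. Higher genes numbered 39 with a pseudocount of 0.5, 139 with 10, 168 with 50 (an alternative chosen after seeing the data), 53 with no filter beyond a value above 0, 45 without the trend, and 25 to 90 with 1 library left out. Lower genes numbered 159 with median-of-ratios scaling, 69 without the trend, and 108 to 348 with 1 library left out. Without DK20129 papain + FK506, 384 genes were called, 42 of them higher, and without DK21069 papain + FK506 1, 438 were called. Of the 339 genes, 100 kept their call without the trend and 136 without DK20129 untreated. ILC2 identity genes called lower numbered 3 without the trend and 5 to 10 with 1 library left out, against 9. The median difference over all genes was -0.72 without scaling, against -0.92, and the share of calls that were higher was 36.5% without scaling and 40.0% with median-of-ratios scaling, against 26.3%. As shares of all listed values, 9 lineage lists were still higher in every DK20129 library, and 1 was lower in every DK20129 library, against 2 as sums. The cause of these changes was not tested. Of 67 named or listed genes called, 20 passed under every alternative, and of the 33 lineage members called, 14 kept their call without DK20129 untreated and 18 without DK20129 papain + FK506. Without the trend 11 of those 33 kept their call, 8 higher and 3 lower. The differences of replicates 1 and 2 correlated at -0.0020, 0.0052 and -0.0025 between pairs of treatments. These values show no pairing of libraries by replicate number. They cannot exclude it, because differences of single libraries at these depths hold much counting error. With the replicate block, replicate 3 against the mean of 1 and 2, 237 of the 339 genes were called and no others. Counting error limits all statements on genes near 10 units.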

Other observations

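Sorting stress and activation transcripts did not move one way. Of 24 immediate early genes tested, 3 passed as higher in DK20129 and 4 as lower, beside 1.42% and 3.99% of all genes. Egr1, an early transcription factor, had 990, 901 and 827 units in the DK20129 untreated, papain and papain + FK506 libraries, against 26 to 330 (median 109) in DK21069 (log2 difference 2.73, SE 0.63, adjusted p = 0.00487). Junb, an AP-1 subunit, had 4736, 2769 and 3244 units in DK20129, against 5809 to 8482 (median 6539) in DK21069 (log2 difference -1.29, SE 0.14, adjusted p = 5.08e-09). Nfkbia, the inhibitor of NF-κB, had 3131, 3883 and 3785 units in DK20129, against 4062 to 8103 (median 6815) in DK21069 (log2 difference -1.13, SE 0.16, adjusted p = 2.41e-06). Egr1, Junb and Nfkbia did not overlap between the codes. When the variance was fitted without a trend on expression, all 7 immediate early calls were lost. Adjusted p was then 0.148, 0.42 and 0.488 for Egr1, Junb and Nfkbia. Ier3 and Nr4a1 were the other higher genes (adjusted p = 0.0109 and 0.0296) and Dusp2 and Rgs1 the other lower ones (adjusted p = 0.0135 and 0.000562). The call of Ier3 was lost without DK20129 papain + FK506 (adjusted p = 0.0805), that of Rgs1 without DK20129 papain (adjusted p = 0.0552), and those of Nr4a1 and Dusp2 in 3 and 5 of the 9 fits that left out a library, with adjusted p up to 0.348 and 0.122 without DK20129 papain.

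Of 62 ribosomal protein genes tested, 12 passed as lower in DK20129 and 0 as higher, beside 3.99% and 1.42% of all genes, with a median log2 difference of -0.72 beside -0.92 over all genes. The sums were 25947, 37192 and 22139 units in the DK20129 untreated, papain and papain + FK506 libraries, against 32735 to 60709 units in DK21069. Of 13 genes that every cell uses, 1 passed: Eef2, a translation elongation factor, was lower (adjusted p = 0.000263). Its call was lost without a trend of variance on expression (adjusted p = 0.438). Malat1, a nuclear noncoding RNA, had 19699, 10943 and 16711 units in DK20129, against 3358 to 8235 (median 5452) in DK21069 (log2 difference 1.12, SE 0.17, adjusted p = 1.68e-05). That call was lost without DK20129 papain + FK506 (adjusted p = 0.0805) and with robust variance settings (adjusted p = 0.229). It was also lost without a trend of variance on expression (adjusted p = 0.505). Neat1, another nuclear RNA, passed as lower (adjusted p = 0.046) but in only 1 of the 9 fits that left out a library, that without DK20129 papain + FK506. Of 8 cell cycle genes tested, 0 passed with limma. Xist was listed above 0 in all 9 libraries, and Ddx3y, Eif2s3y, Kdm5d and Uty were at 0 in all 9. Rn45s, the precursor of ribosomal RNA, chosen after its values were seen, took 2.77%, 10.1% and 6.31% of listed values in the DK20129 untreated, papain and papain + FK506 libraries, against 3.96% to 19.3% in DK21069.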
